A study of Mus musculus with 12 samples.

Results

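The genes described here build and run motile cilia, the beating hairs of multiciliated airway cells. The set holds 40 of the 30399 genes in the deposited table and was chosen by function, with earlier results of these data known. It covers regulators of multiciliated cell fate, axonemal dyneins, radial spokes, the central apparatus, proteins of the doublet microtubules, and tubulin with its modifiers. All 40 names matched 1 row each, and all 40 passed the filter on low values (a mean normalized count of at least 1). They were compared between 5 samples labelled normal lung and 7 labelled tumor, from mice in a study of lung cancer models made by nonviral CRISPR/Cas9 mutagenesis. The labels give no genotype, targeted gene, strain, age, sex or treatment for either group, so the tumors are described by their tissue label alone. Tumor titles carry numbers, 159 for tumors 3 and 4 and 201 for tumors 5, 6 and 7, whose meaning is not given, and the titles of tumors 1 and 7 hold a Spanish word for trachea. Nothing in the labels says that the samples came from separate animals, and p-values then measure only the spread between these samples.

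A motile cilium is a rod of microtubule doublets, the axoneme, bent by rows of dynein motors. Radial spokes and the central apparatus inside the ring of doublets regulate the motors, and ruler and linker proteins fix their spacing. In a cell committed to this fate, Gmnc and Mcidas act early with E2F factors, many centrioles are then made, and Foxj1 and the RFX factors, which bind a DNA element called the X-box, switch on axoneme genes. Many other cells carry a single primary cilium, which shares the intraflagellar transport machinery but not the motors. In lung, multiciliated cells line the airways beside secretory club cells.

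Promoter letters are shown first because the X-box is the element that RFX factors bind, and levels of Rfx2 and Rfx3 follow. RefSeq promoters (GRCm38.p6, 250 bases before to 50 after each gene start) were at hand for 34 of the 40 genes, 41 promoters in all. The X-box was searched on both strands as GTNNCC and GNAAC with any 3 bases between. It was present in 7 of the 41 promoters (17.1%), against 714 of all 32851 promoters searched (2.17%). The letters were found in promoters of Ccno, Cfap206, Cfap44, Hydin, Spag16, Tekt4 and Zmynd10. Upstream windows of 5 of them are printed 5′ to 3′ on the strand of the gene, with the letters that match on either strand in capitals.
Ccno (GRCm38.p6, chr13:112987558-112987621, + strand): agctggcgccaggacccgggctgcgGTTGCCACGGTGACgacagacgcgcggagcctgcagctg
Cfap206 (GRCm38.p6, chr4:34730207-34730254, - strand): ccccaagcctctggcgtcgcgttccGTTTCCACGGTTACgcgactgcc
Cfap44 (GRCm38.p6, chr16:44394747-44394798, + strand): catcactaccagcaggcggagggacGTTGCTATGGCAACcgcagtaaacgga
Hydin (GRCm38.p6, chr8:110266931-110266976, + strand): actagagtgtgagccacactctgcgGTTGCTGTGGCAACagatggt
Spag16 (GRCm38.p6, chr1:69826842-69826905, + strand): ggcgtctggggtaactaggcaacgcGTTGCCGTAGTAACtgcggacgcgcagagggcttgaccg

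The matches in Cfap206, Cfap44 and Hydin start 23, 27 and 21 bases before the gene start, and those in Spag16 and Ccno 103 and 219 bases before it. The same letters stood in 13 of 61 promoters of a list of intraflagellar transport and primary cilium genes (21.3%), in 9 of 57 promoters of other motile cilium genes (15.8%) and in 1 of 25 promoters of multiciliogenesis genes. A forkhead element, GTAAACA on either strand, was in 2 of the 41 promoters (4.88%), those of Ak7 and Cfap43, against 3.65% of all promoters searched. These matches describe letters in a window and are not measured binding sites.

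Most of the set was lower in tumor. Of the 40 genes, 30 fell and 3 rose at a limma adjusted p under 0.05, while 7 did not pass it. Over all 23674 genes tested, 30.1% were called lower and 31.4% higher. The 7 tumors lay below all 5 normal lungs in 25 of the 40 genes, against 18.4% of all tested genes, and above them in 1, against 20.1%. The median log2 fold change of the set was -3.13, against 0.04 over all tested genes. Fold changes are tumor minus normal lung on the log2(value + 1) scale, which understates changes of low genes, and values are normalized counts, reads divided by a size factor per sample and not by gene length.

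The 30 genes that fell had tumor means between 1.61% (Dynlrb2) and 60.95% (Ccdc40) of the normal lung mean, with a median of 10.9%. By 4 log2 units or more fell 12 genes, and by 2 or more 26. The 3 genes that rose were Mns1, Rfx3 and Ccdc39. The 7 that did not pass were the regulators Rfx2, Mcidas and Ccno, the spoke genes Rsph1 and Rsph9, Cfap53 and Tubb4b. Within single tumors, between 26 (tumor 4) and 31 (tumor 2) of the 40 genes lay more than 1 log2 unit below their normal lung mean. The map of all 40 genes by sample shows these blocks of low values and the few rows that depart from them.

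**Figure D1:**
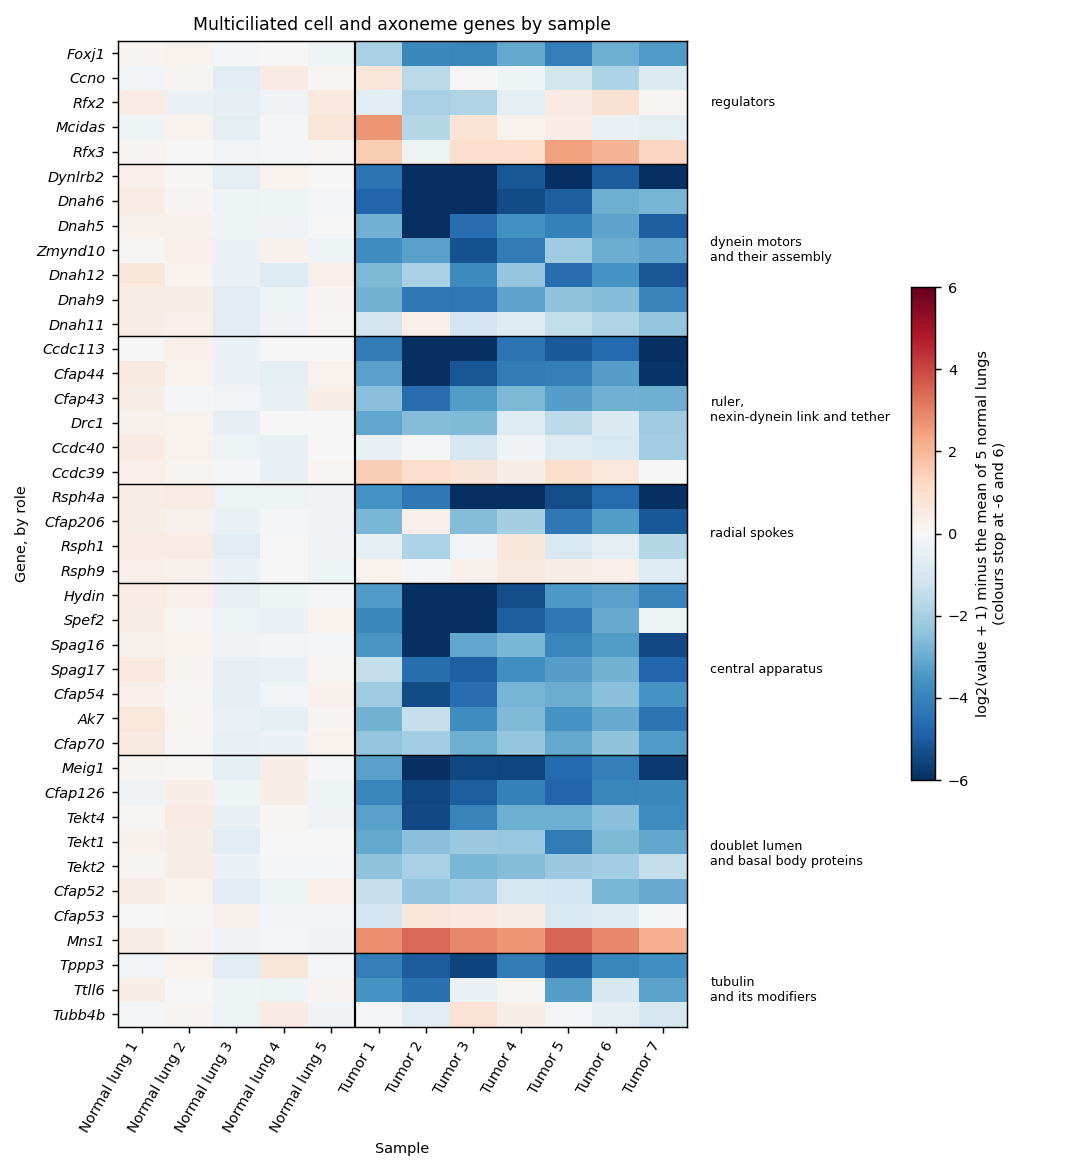
Each row is a gene, grouped by role, and each column a sample (5 normal lungs, then 7 tumors). Colour is log2(value + 1) minus the mean of the 5 normal lungs, blue for lower and red for higher, and colours stop at -6 and 6. Most rows are blue in every tumor, whereas Mns1 is red in every tumor and Rsph9 and Tubb4b stay closer to the normal lung level.

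Markers of some other cells were lower in tumor like the set, and those of others were not. The alveolar markers summed to 186330 to 304760 normalized counts in normal lung samples and to 1166 to 3994 in tumors. All 8 alveolar markers, 6 of 8 airway secretory markers and all 7 leukocyte markers in the table were lower in tumor, and 7 of 8 neuroendocrine and all 8 proliferation markers were higher. The shares over all tested genes were 30.1% lower and 31.4% higher. Of 6 basal markers 2 were higher (33.3%), near the 31.4% of all tested genes. Tumor 7 stood apart in the leukocyte markers, with a sum of 8859 normalized counts inside the normal lung range of 6956 to 12250, while the other tumors had 256 to 2536. Summed normalized counts of the secretory markers ran from 103100 to 246100 in normal lungs and from 74.4 to 6809 in tumors. Scgb1a1, the main secretory protein of club cells, had 1.98 (tumor 3) to 627 (tumor 1) normalized counts in tumors, and Cyp2f2 and Scgb3a2 were at 0 in tumor 3. The 7 heart muscle markers summed to 40942 in tumor 7 and to at most 4624 elsewhere, and none of them passed the threshold. In these bulk samples, fewer multiciliated cells and less RNA per cell cannot be told apart, and the part of cell makeup in the fold changes was not tested. Recovered depth was 11126432 to 17032234 reads in normal lungs and 13093843 to 24217633 in tumors. In normalized counts, 3 reads come to at most 4.85 across the normal lungs and 3.57 over the tumors, for counting error only. All 40 genes were above 3 reads in every normal lung, and 8 were at or below it in some tumor.

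Foxj1, the forkhead factor that switches on motile cilium genes, was the regulator that fell. It (ENSMUSG00000034227) stood at normalized counts of 3607, 3784, 2991, 3352 and 2721 across the normal lungs and of 835, 223, 214, 386, 185, 432 and 311 in tumors 1 to 7. The groups did not overlap, tumor 1 was the highest tumor, and every tumor kept values far above 3 reads. Foxj1 fell by 3.33 on the log2 scale (SE 0.32, limma adjusted p = 1.06e-06).

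The RFX factors went a different way. Rfx3 (ENSMUSG00000040929) stood at normalized counts of 499, 454, 401, 402 and 469 across the normal lungs and of 1257, 359, 934, 919.6, 2437, 1842 and 1077 in tumors 1 to 7. Tumor 2 was below every normal lung and the other tumors above, and Rfx3 rose by 1.30 (SE 0.36, limma adjusted p = 0.00664). Rfx2 (ENSMUSG00000024206) stood at normalized counts of 802, 460.2, 418, 504 and 885 across the normal lungs and of 363, 151, 169.5, 386, 832, 1104 and 626 in tumors 1 to 7. Its groups overlapped and its log2 fold change of -0.50 (SE 0.47) did not pass the threshold (limma adjusted p = 0.367). The tumors numbered 201 (tumors 5, 6 and 7) had the 3 highest tumor values of Rfx2, at 832, 1104 and 626.

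Mcidas and Ccno, early regulators of centriole amplification that lie next to each other in the genome, were low in both groups and did not pass the threshold. Mcidas (ENSMUSG00000074651) stood at normalized counts of 24.5, 34.4, 19.4, 26.8 and 48.3 across the normal lungs and of 191, 8.34, 52.5, 34.1, 40.4, 22.2 and 19.2 in tumors 1 to 7. Tumor 1 stood highest and tumor 2 lowest, and the log2 fold change of 0.22 (SE 0.60, limma adjusted p = 0.769) became -0.19 without tumor 1 (adjusted p = 0.732, with alternatives from 0.0791 to 0.93). It was 0.87 in edgeR (adjusted p = 0.299) and reached 1.41 with the Y-linked genes in the fit. Ccno (ENSMUSG00000042417) stood at normalized counts of 69.6, 86.0, 50.1, 110.0 and 85.1 across the normal lungs and of 130.4, 25.02, 78.3, 65.6, 35.6, 20.9 and 44.2 in tumors 1 to 7. Tumor 1 was again highest, tumors 2, 5, 6 and 7 were below every normal lung, and the other tumors were not, at a log2 fold change of -0.69 (SE 0.43, limma adjusted p = 0.180). Its sign changed, to 0.16, once the level of Y-linked genes entered the fit. The plot of regulators by sample shows Foxj1 separated between the groups and the other regulators spread within the tumors.

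**Figure D2:**
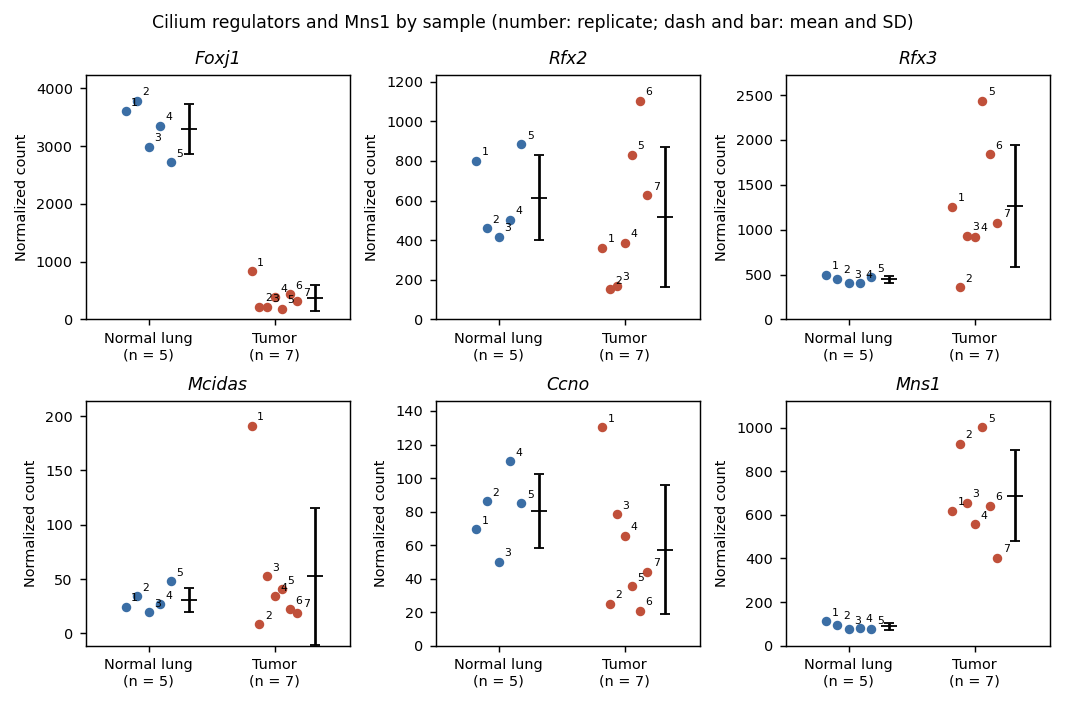
Points are normalized counts of single samples, numbered by replicate, for the 5 regulators and Mns1 in normal lung (blue, n = 5) and tumor (red, n = 7), and the dash and bar are the mean and SD. Foxj1 lies lower and Mns1 higher in all tumors, while Rfx2, Mcidas and Ccno overlap between the groups and tumor 1 is the highest sample for Mcidas and Ccno.

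The dynein group was lower throughout, with 7 of 7 genes called, against 30.1% of all tested genes called lower. Dynlrb2, a light chain of the roadblock class, fell by 6.25 (SE 0.63, limma adjusted p = 1.80e-06). It stood at normalized counts of 431, 364, 231, 405 and 343 across the normal lungs and of 0 (tumor 7) to 15.2 (tumor 1) in tumors, with a median of 2.43 and 4 tumors at or below 3 reads. The outer arm heavy chains Dnah5 (-4.37) and Dnah9 (-3.38), the inner arm heavy chains Dnah6 (-4.98) and Dnah12 (-3.44), and Zmynd10 (-3.52), which helps to assemble dynein arms in the cytoplasm, all fell with groups that did not overlap. Dnah11, the partner of Dnah5 in the proximal part of the cilium, was the exception in size. It stood at normalized counts of 402, 386, 200.3, 265 and 333 across the normal lungs and of 141, 386, 137, 181, 110.0, 86.9 and 58.3 in tumors 1 to 7. Tumor 2 was thus within the normal lung range, and Dnah11 fell by 1.199 (SE 0.39, limma adjusted p = 0.0154). The Dnah11 call was lost in edgeR (-0.91, adjusted p = 0.0875) and DESeq2 (-0.96, adjusted p = 0.0551) on recovered reads. It was also lost in limma with same-numbered tumors averaged (-0.91, adjusted p = 0.0705) and with the Y-linked genes in the fit (-0.89, adjusted p = 0.163), and the lowest adjusted p of any alternative was 0.00112. Of its annotated exon bases 4.44% overlap Cdca7l on the opposite strand, whose mean was 159.6 normalized counts across the normal lungs and 399 over the tumors.

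Dnah6 varied widely among the tumors, an SD of 1.74 log2 units against 0.32 among normal lungs. It stood at normalized counts of 1279, 1056, 746, 779 and 888 across the normal lungs and of 33.6, 7.15, 4.96, 21.6, 29.1, 122 and 135 in tumors 1 to 7. Tumors 6 and 7 held the highest tumor values, still below every normal lung.

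The ruler, linker and tether genes split. Ccdc39 and Ccdc40 together form the ruler that sets the repeat of the axoneme. Ccdc39 (ENSMUSG00000027676) rose by 0.75 (SE 0.24, limma adjusted p = 0.0133), from normalized counts of 478, 427, 354, 279 and 416 across the normal lungs to 1063, 796, 662, 502.9, 751, 594 and 385 in tumors 1 to 7. Of the tumors, tumor 7 was within the normal lung range and the others above it. Of its exon bases 16.9% overlap Ttc14 on the opposite strand, whose mean was 1410.3 normalized counts across the normal lungs and 929.6 over the tumors. Ccdc40 was lower, with mean normalized counts of 664 ± 170.2 across the normal lungs (SD, n = 5) against 405 ± 155 over the tumors (SD, n = 7). Its call (-0.79, SE 0.31, limma adjusted p = 0.0392) was lost in 13 of 23 alternatives, with adjusted p from 0.0218 to 0.317. Its log2 fold change without 1 sample was -0.67 without normal lung 1, -0.74 without normal lung 2, -0.78 without normal lung 5, -0.75 without tumor 3, -0.80 without tumor 5 and -0.77 without tumor 6, and none of these fits called it.

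The other genes of this group fell clearly. Ccdc113, a coiled-coil protein of the axoneme, stood at normalized counts of 197, 239, 149, 195 and 192 across the normal lungs and of 0 (tumor 2) to 9.50 (tumor 1) in tumors, with a median of 4.85. It fell by 5.54 (SE 0.57, limma adjusted p = 2.43e-06). Cfap43 (-3.18) and Cfap44 (-4.57), which tether the heads of an inner dynein, and Drc1 (-1.97), of the nexin-dynein link, fell with groups that did not overlap.

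Radial spoke genes behaved unequally. Rsph4a, a spoke head protein, fell by 5.55 (SE 0.64, limma adjusted p = 6.43e-06), from normalized counts of 696, 727, 425, 432 and 455 across the normal lungs to between 1.28 (tumor 7) and 43.0 (tumor 1) over the tumors, with a median of 12.1. Rsph9, another spoke head protein, stood at normalized counts of 340.5, 331, 218, 285 and 229.9 across the normal lungs and of 163 (tumor 7) to 408 (tumor 4) in tumors, with a median of 326. Its groups overlapped, with a log2 fold change of 0.12 (SE 0.23, limma adjusted p = 0.670). Rsph1, also of the spoke head, stood at normalized counts of 268, 273, 124, 199 and 169 across the normal lungs and of 53.6 (tumor 2) to 315 (tumor 4) in tumors, with a median of 130.1. Its log2 fold change of -0.74 (SE 0.40, limma adjusted p = 0.127) passed the threshold without tumor 4 (-0.97, adjusted p = 0.0297, with alternatives up to 0.643).

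Cfap206, which belongs to the base of a spoke, had 1 tumor apart from the rest. It stood at normalized counts of 426, 405, 255, 323 and 292 across the normal lungs and of 48.7, 417, 53.5, 84.4, 16.2, 32.3 and 8.97 in tumors 1 to 7. Tumor 2 was within the normal lung range and the others were below it. Cfap206 fell by 2.82 (SE 0.70, limma adjusted p = 0.00351), a call lost in edgeR (-1.67, adjusted p = 0.0932, with alternatives from 9.11e-05).

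All 7 central apparatus genes fell, against 30.1% of all tested genes. Hydin, a very large protein of the central pair, stood at normalized counts of 874, 798, 467, 543 and 604 across the normal lungs and of 58.9, 4.77, 7.93, 15.3, 58.2, 66.0 and 39.1 in tumors 1 to 7, and fell by 4.62 (SE 0.60, limma adjusted p = 2.06e-05). Cfap70 changed least of the group. Its normalized counts were 276, 201, 139, 148 and 219.6 across the normal lungs and 17.3 (tumor 7) to 44.1 (tumor 2) over the tumors, with a median of 35.0, a log2 fold change of -2.65 (SE 0.30, limma adjusted p = 5.66e-06). Spag17 (-3.63), Cfap54 (-3.41) and Ak7 (-3.07), an adenylate kinase, fell with groups that did not overlap.

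Spag16 and Spef2 had the largest spreads of the 40 genes among tumors, SDs of 2.25 and 2.68 log2 units. Spag16 stood at normalized counts of 702, 678, 506, 515 and 531 across the normal lungs and of 50.6, 0, 65.4, 87.1, 38.0, 56.6 and 12.8 in tumors 1 to 7, so that tumor 2 had no read. It fell by 4.45 (SE 0.90, limma adjusted p = 7.67e-04). Spef2, a protein needed for the central pair, stood at normalized counts of 438, 360.2, 275, 249.7 and 384 across the normal lungs and of 22.2, 1.19, 0, 9.88, 16.2, 40.4 and 270.3 in tumors 1 to 7. Tumor 7 was within the normal lung range, and every other tumor was below it (-4.58, SE 1.07, limma adjusted p = 0.00222). In edgeR the log2 fold change of Spef2 was -2.38 (adjusted p = 0.0426). Tumor 7 also held the highest sum of heart muscle markers, and whether the 2 are related was not tested.

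Among proteins of the doublet lumen and the basal body, 6 of 8 genes fell, 1 rose and 1 did not pass. The shares over all tested genes were 30.1% lower and 31.4% higher. Mns1, a filament protein inside the doublets, was the gene of the set with the largest rise. It (ENSMUSG00000032221) stood at normalized counts of 111, 96.8, 75.9, 83.2 and 74.7 across the normal lungs and of 619, 926, 656, 558, 1002, 642 and 404 in tumors 1 to 7, with no overlap between the groups. Mns1 rose by 2.90 (SE 0.23, limma adjusted p = 1.66e-07), from a mean of 88.3 ± 15.4 (SD, n = 5) to 687 ± 208 (SD, n = 7). Of its 5363 annotated exon bases 2842 (53.0%) overlap Tex9 on the opposite strand. Tex9 stood at normalized counts of 192, 137, 126, 71.9 and 207 across the normal lungs and of 479.9, 660.0, 626, 666, 853, 728 and 396 in tumors 1 to 7. Whether counting used the strand is not given in the sources used here, so the counts of Mns1 and Tex9 cannot be fully told apart.

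Meig1, better known from sperm formation, was nearly absent from tumors. It stood at normalized counts of 96.7, 94.6, 56.5, 113 and 82.8 across the normal lungs and of 0 (tumor 2) to 8.23 (tumor 1) in tumors, with 5 of 7 tumors at or below 3 reads, and fell by 5.03 (SE 0.51, limma adjusted p = 1.99e-06). Cfap126, which helps to place basal bodies, fell by 4.42 (SE 0.34, limma adjusted p = 1.54e-07). The tektins Tekt1 (-2.87), Tekt2 (-2.20) and Tekt4 (-3.55), filaments along the doublet wall, and Cfap52 (-1.97), a protein inside the doublets, fell with groups that did not overlap. Cfap53, another protein of the doublets, stood at normalized counts of 259, 277, 317, 238 and 235 across the normal lungs and of 116.5, 430.1, 392, 339, 142, 154 and 240.2 in tumors 1 to 7. Its tumors lay on both sides of normal lung (-0.19, SE 0.33, limma adjusted p = 0.633, sign changed to 0.013 under equal totals), with tumors 2, 3 and 4 above every normal lung and tumors 1, 5 and 6 below.

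Tppp3, a microtubule-bundling protein abundant in ciliated cells, fell by 4.51 (SE 0.32, limma adjusted p = 6.45e-08). Its normalized counts were 6693, 8714, 4895, 11820.0 and 7019.6 across the normal lungs and 161 (tumor 3) to 576 (tumor 7) over the tumors, with a median of 402. Tubb4b, a beta tubulin of cilia that also serves the general cytoskeleton, stood at normalized counts of 2881, 3567, 2557, 4479 and 2706 across the normal lungs and of 1606 (tumor 7) to 5728 (tumor 3) in tumors, with a median of 2927. Its groups overlapped (-0.16, SE 0.28, limma adjusted p = 0.641), and the sign changed under equal totals (0.046). Ttll6, which adds glutamate chains to tubulin, divided the tumors. It stood at normalized counts of 393, 318, 255, 253 and 348 across the normal lungs and of 25.3, 13.1, 239.9, 319.7, 29.9, 157 and 32.02 in tumors 1 to 7. Tumors 3 and 4, which share a title number, were highest, and tumor 4 was within the normal lung range. Ttll6 fell by 2.26 (SE 0.72, limma adjusted p = 0.0146), a call lost in edgeR (-1.64, adjusted p = 0.0661, with alternatives from 0.00392) and, in limma, with the Y-linked genes in the fit (-2.47, adjusted p = 0.0516).

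**Figure D3:**
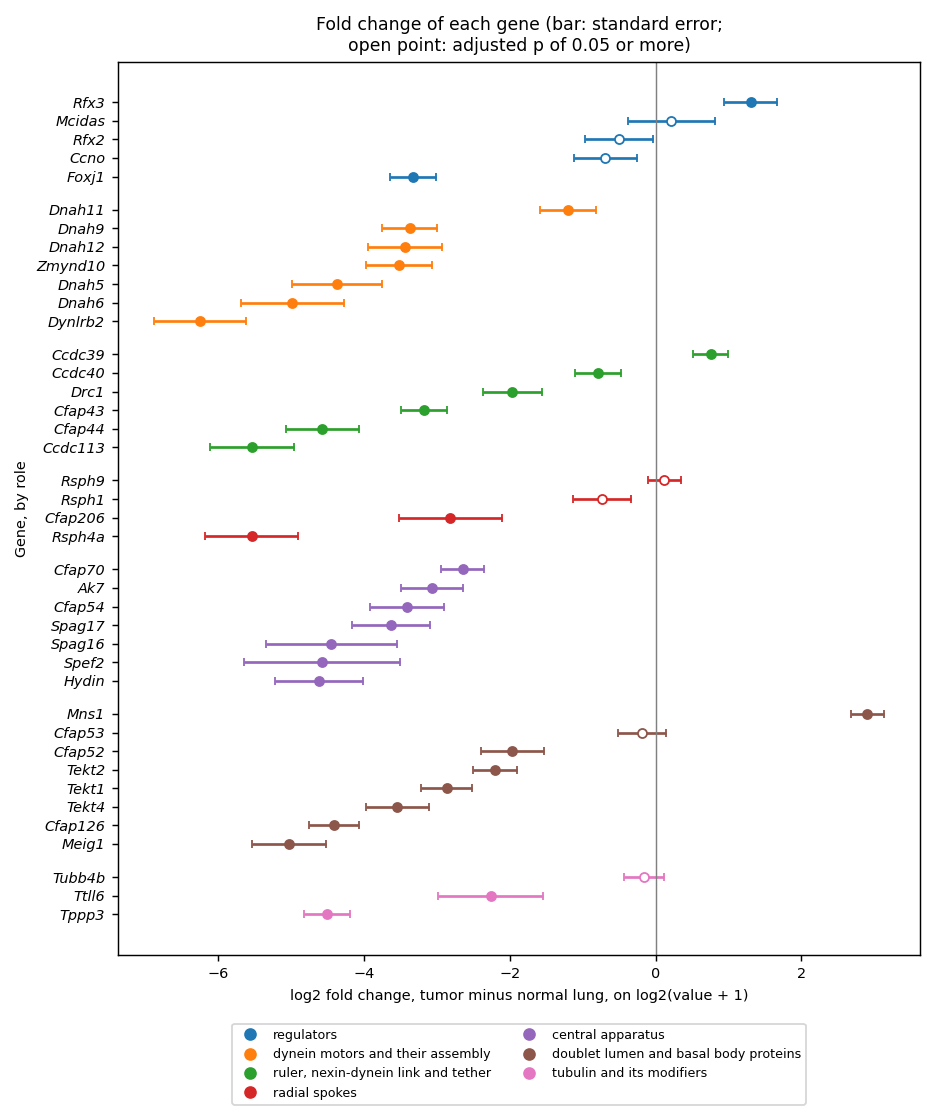
Points are log2 fold changes, tumor minus normal lung, with bars of 1 standard error, coloured by role, and open points did not pass an adjusted p of 0.05. Of 40 points 35 lie left of 0, from -6.25 for Dynlrb2. Right of it lie the filled points of Ccdc39, Rfx3 and Mns1 at 0.75, 1.30 and 2.90 and the open points of Rsph9 and Mcidas at 0.12 and 0.22.

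On the log2 scale the tumors differed among themselves in these genes more than the normal lungs did. In normalized counts the SD was smaller in tumors for some genes, such as Tppp3 (155 against 2611) and Foxj1 (225 against 436). It was larger for others, such as Rfx3 (682 against 43.0). The SD of the log2 value was larger in tumors for 40 of 40 genes, against 77.3% of all tested genes, with a median of 0.94 in tumors and 0.34 in normal lungs (0.63 and 0.35 over all tested genes). Most of the 40 genes were low in tumors, where counting error adds to the log2 spread. The share over all genes was not matched for level, and the part of counting error was not tested. The mean log2 value over the 40 genes was 8.10 to 8.75 in normal lungs and 6.43, 5.18, 5.45, 6.23, 5.92, 6.33 and 5.43 in tumors 1 to 7. Tumors 1, 4 and 6 were thus the highest. The same 3 tumors had the highest mean log2 values of the airway secretory markers, 9.06, 8.06 and 7.99, against 1.52 to 5.11 in the other tumors. They also had the highest mean log2 values of the basal markers, 5.11, 6.41 and 5.39, against 2.91 to 4.45. For Scgb1a1 alone the order differed, with normalized counts of 539 in tumor 5 against 206 and 213 in tumors 4 and 6. These matches were noticed in the data, and their part in the levels of the 40 genes was not tested.

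The rest of the motile cilium pathway was described with a second list, also chosen with earlier results of these data known. Of 72 other motile cilium genes in the table, 58 fell (80.6%, against 30.1% of all tested genes) and 3 rose (4.17%, against 31.4%). Their median log2 fold change was -2.30. In 48 of them all tumors were below all normal lungs, against 18.4% of all tested genes. Dnali1, an inner arm light chain, stood at normalized counts of 533 to 802 across the normal lungs and of 2.97 to 34.2 in tumors (-6.11, limma adjusted p = 2.22e-07). Sntn, a protein of the ciliary tip, ranged over normalized counts of 212 to 387 across the normal lungs and of 0 to 18.4 over the tumors (-6.10, limma adjusted p = 4.17e-06). Those that rose were Cfap300 (1.28), Rsph3a (0.89) and Spag1 (0.64, named after its value was seen). Cfap300 and Spag1 act in the assembly of dynein arms.

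Genes of multiciliated cell fate and centriole amplification went both ways. Of 22 such genes, 12 rose (54.5%, against 31.4% of all tested genes) and 6 fell (27.3%, near the 30.1% of all tested genes), with a median log2 fold change of 1.80. Of the 12, Cdk1 and Stil, which also serve dividing cells, had the largest rises, 5.68 (limma adjusted p = 8.77e-09) and 5.12 (limma adjusted p = 3.78e-09). Without Cdk1, which is also on the proliferation list, 11 of 21 rose. The 11 still include Stil, so this count does not set apart the genes that also serve dividing cells. The proliferation markers summed to 1472 to 2888 normalized counts across the normal lungs and to 21134 to 48937 over the tumors, and their part in these changes was not tested.

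Gmnc, the geminin relative at the top of the multiciliated programme, was nearly absent from tumors. It had 65.8, 83.9, 48.5, 63.5 and 51.7 normalized counts in normal lungs, while 5 tumors were at 0 and the highest reached 1.28 in tumor 7. Against the floor of 3 reads per library it was at least 17.5-fold lower in tumors (limma adjusted p = 1.14e-08). Cdc20b, which lies beside Mcidas and Ccno, fell by 2.21 (limma adjusted p = 0.00545).

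Foxn4, Trp73 and Myb, partners of these regulators, were higher. Of the same list, Ccdc78 (-1.64), Nek10 (-1.83), Cep63 (-0.57) and E2f5 (-0.55) passed the threshold and were lower. In Ccdc78, Nek10 and Cep63 all tumors were below all normal lungs. These genes and Deup1 are named here after their values were seen. Foxn4, a forkhead factor active in multiciliated progenitors, stood at normalized counts of 9.68 to 34.5 across the normal lungs and of 279.8, 5.96, 111, 159, 179.6, 47.2 and 115 in tumors 1 to 7 (2.25, limma adjusted p = 0.0197). Trp73, a p53 relative upstream of Foxj1, stood at normalized counts of 229 to 574 across the normal lungs and of 3005, 492, 1496, 2284, 1582, 1768 and 587 in tumors (1.83, limma adjusted p = 0.00219). Myb rose by 2.03 (limma adjusted p = 7.84e-04), with 2806 normalized counts in tumor 1 and 387 in tumor 2. Deup1, the core protein of the deuterosome on which centrioles multiply, stood at normalized counts of 52.2 to 76.3 across the normal lungs and of 427, 15.5, 319, 296, 259.7, 299 and 126 in tumors. It did not pass the threshold (1.44, SE 0.66, limma adjusted p = 0.0716). In Mcidas, Ccno, Foxn4, Trp73, Myb and Deup1 alike, tumor 1 was the highest tumor, and tumor 2 was the lowest in all of these but Ccno. This pattern was noticed in the data and does not hold across the list. Tumor 2 was the highest tumor for Cep152 (2448 normalized counts), Ccp110 (4129), Cdk1 (4081), E2f4 (1651), Rfx1 (1863) and Ccdc78 (90.5).

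Intraflagellar transport and primary cilium genes also went both ways. Of 58 genes, 29 rose (50%, against 31.4% of all tested genes), 10 fell (17.2%, against 30.1%) and 19 did not pass, with a median log2 fold change of 0.53. Ahi1, of the ciliary transition zone, stood at normalized counts of 158 to 279.9 across the normal lungs and of 1170.1 to 2515 in tumors (3.37, limma adjusted p = 3.58e-08), and Nphp4, also of the transition zone, rose by 3.28 (limma adjusted p = 9.56e-07). The transport genes Wdr19 (-1.27, limma adjusted p = 2.00e-04) and Traf3ip1 (-1.22, limma adjusted p = 7.23e-05) fell. All tumors lay above all normal lungs in 14 of the 58 genes and below in 6, against 20.1% and 18.4% of all tested genes, so that the first count is near that of all genes. No test between the lists was made, and the plot of the 4 cilium lists sets their fold changes beside the middle of all genes.

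**Figure D4:**
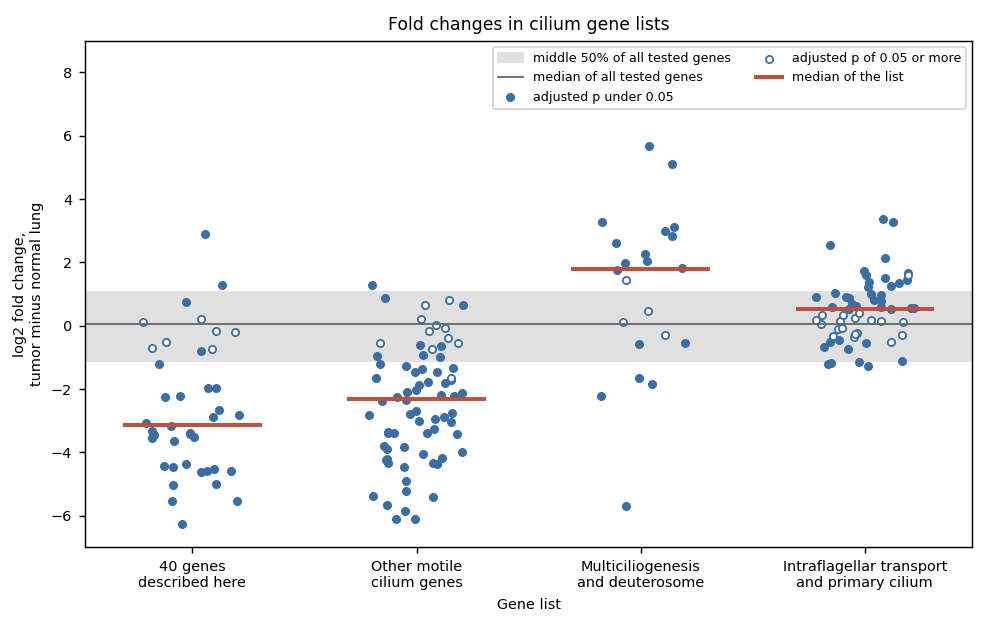
Points are log2 fold changes of single genes, tumor minus normal lung, in the 40 genes and 3 other cilium lists, filled at an adjusted p under 0.05. Red lines are list medians (-3.13, -2.30, 1.80 and 0.53), the grey line is the median of all tested genes (0.04), and the grey band holds the middle 50% of them.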

How the data were processed

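Poly-A RNA from 5 normal lungs and 7 tumors was sequenced on an Illumina NovaSeq, per the labels' protocols. The submitters' processing notes name featureCounts, DESeq2 and the build GRCm39, and aligner, annotation and use of the strand are not given in the sources used here. The authors deposited 1 table of a normalized read count signal. The unit was worked out from the values: within 0.01 reads, 100% of values in each column were whole multiples of 1 step. Recovered reads of 11 columns went into count tests, without tumor 3, whose steps did not pass a second check. In edgeR, 11 samples and 18308 genes gave 6384 genes called higher and 4821 called lower. Symbols came from GENCODE M21, and exon overlaps from its models.

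Genes with a mean of 1 or more, 23674 of them, entered a test of log2(value + 1) in limma 3.58.1 (lmFit, eBayes with trend, R 4.3.3) and Benjamini-Hochberg adjustment over all of them. A call is an adjusted p under 0.05. On simulated counts of 18540 genes in groups of the same sizes, limma recovered 99 of 100 genes changed 4-fold and 22 of 100 changed 2-fold. Of its 131 calls 10 were false. No other gene was changed there, and all genes had the same dispersion in both groups. In the data 61.5% of tested genes were called, so these rates may not carry over to it. Tumors 3 and 4 and tumors 5 to 7 share title numbers, which were handled in alternatives. The members and lists were chosen with earlier results of these data known.

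Named with values are the regulators, the extremes of each role, members that missed the call or opposed their role, the 5 most variable over tumors, and the 2 largest calls per direction in each cilium list. Of 87, 22 and 59 listed genes, 72, 22 and 58 were analysed. Alternatives were edgeR 4.0.16, DESeq2 1.42.0, filters, a pseudocount of 0.1, other scalings, averaged or correlated same-numbered tumors, tumors without trachea in the title, each sample left out and, chosen after seeing the data, the mean log2 level of 4 Y-linked genes as a covariate.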

Additional observations from a re-analysis of the deposited data

Results flagged for a closer look

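Of 80 sets of values (40 genes in normal lung and in tumors), 2 held a sample that stood apart from the rest on Dixon's outlier test at the 95% level. Chance alone gives about 4. Both were low values of tumor 2. Its Spag16 log2 value was 0, with no read, against 3.79 in the next lowest tumor. Its Cfap43 log2 value was 5.57, or 46.5 normalized counts, against 6.82 (112) in the next lowest tumor.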

How the results depend on the processing

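Of the 40 genes, 31 kept their direction and their side of the threshold in each of 23 alternatives, and the count called lower ran from 26 (edgeR on recovered reads) to 31, with 3 called higher in each. Leaving out single samples gave 29 to 31 lower among the 40 genes, and Mcidas ran from -0.19 (without tumor 1) to 0.53 (without tumor 2), against 0.87 in edgeR and 1.41 with the Y-linked covariate. Scaling to equal totals moved the median over all genes from 0.04 to 0.23 and left 6129 of all tested genes lower in place of 7124. It left 6 intraflagellar transport and primary cilium genes lower in place of 10, and changed the sign of Cfap53 (0.013) and Tubb4b (0.046). Without the trachea-titled tumors Mcidas was at -0.12. With the Y-linked covariate 27 of the 40 genes fell, and 1 other motile cilium gene rose in place of 3. In that fit 3 multiciliogenesis genes fell in place of 6 and 5 intraflagellar transport and primary cilium genes in place of 10. Ccno (0.16) and Tubb4b (0.032) changed sign. Over all tested genes the same covariate left 5758 called lower in place of 7124 and 5874 called higher in place of 7430. The cause of these shifts was not tested. No paired analysis was possible because the labels give no replicate numbers shared by normal lungs and tumors. Values at or below 3 reads cannot be ranked, which concerns 8 of the 40 genes in some tumor.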

Other observations

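Wdr35, an intraflagellar transport gene that did not pass the threshold (1.59, SE 0.68, limma adjusted p = 0.0547) and was picked out with its values known, stood at normalized counts of 278 to 451 across the normal lungs and of 774, 14404, 681, 965, 698, 668 and 419 in tumors 1 to 7. Tumor 2 stood far above the other tumors, of which all but tumor 7 lay above the normal lung range.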
